A study of Rattus norvegicus with 4 samples.

Results

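Gremlin (*Grem1*), norrin (*Ndp*) and osteoprotegerin (*Tnfrsf11b*) are secreted proteins that act on signals between cells. They were examined together with *Fst*, *Sfrp1*, *Sfrp4*, *Wif1* and *Dkk3* in rat lens capsules after extracapsular lens extraction (ECLE), surgery that opens the capsule and takes the lens content out. Members were the probe sets whose only gene symbol in the platform annotation was one of these 8 genes. All 8 genes had a probe set, and together they had 16 of the 31042 probe sets of the array, or 8 of 14217 named genes. *Grem1*, *Ndp* and *Tnfrsf11b* were selected on their intensity ratios to day 0, which were large on the 3 arrays after ECLE, so these ratios are a description and were given no test. The other 5 genes were chosen by their function, though with earlier results of these data known.

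ECLE was performed in 7-week-old rats, female albino Sprague-Dawley rats by the study's methods, and capsules carrying the lens epithelial cells (LECs) were collected right after surgery (day 0), 7 days later (1 W, rats 8 weeks old) or 14 days later (2 W, rats 9 weeks old). Day 0 and 2 W had 1 array each, and 1 W had 2, labeled as biological replicates 1 and 2. Every group had ECLE, and eyes without surgery were not analysed here. The study's methods state more samples per time point than the arrays analysed here, all from right eyes, and how those samples relate to these arrays is not stated. Median intensities of the arrays were 57.0, 45.2, 46.7 and 31.9 in the order day 0, replicates 1 and 2 of 1 W, and 2 W, and each array was divided by its mean intensity before ratios to day 0 were taken.

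Bone morphogenetic proteins (BMPs), activins and Wnts are secreted ligands that are held in check by other secreted proteins, which bind the ligand or its receptor outside the cell. Gremlin binds BMPs, and follistatin, the product of *Fst*, binds activins. The secreted frizzled-related proteins *Sfrp1* and *Sfrp4* carry a domain like the Wnt-binding part of frizzled receptors, and *Wif1* binds Wnts. *Dkk3* is a divergent member of the Dickkopf family, whose other members block the Wnt co-receptor. Norrin is no antagonist: it is a ligand of the receptor frizzled 4, with the co-receptor *Lrp5* and the tetraspanin *Tspan12*, switches on beta-catenin signaling and is best known for the growth of retinal vessels. Osteoprotegerin is a decoy receptor that captures the TNF family ligands RANKL (*Tnfsf11*) and TRAIL (*Tnfsf10*). In the lens, BMP, activin and Wnt signals act in development and in the epithelial-mesenchymal transition (EMT) of LECs.

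RefSeq promoter windows on GRCr8 matched 3 of the 8 genes. The 250 bases before the annotated start of *Grem1* and *Ndp* are shown because these are the members with a window among those picked for their values after ECLE, and because the sequences differ in composition. *Grem1* lies on the minus strand of chromosome 3 (chr3:120966639-120978319) and its window is chr3:120978320-120978569. *Ndp* lies on the plus strand of chromosome X (chrX:8379569-8404019) and its window is chrX:8379319-8379568. Both are written 5′ to 3′ on the gene's strand, and capitals mark matches to the motifs searched on both strands, which were the TATA box (TATAAA), a core sequence of TCF binding (CTTTGAT), an element bound by Smads (GGCGCC), the AP-1 element (TGANTCA) and the CCAAT box. The motifs do not overlap each other in these windows.
Grem1: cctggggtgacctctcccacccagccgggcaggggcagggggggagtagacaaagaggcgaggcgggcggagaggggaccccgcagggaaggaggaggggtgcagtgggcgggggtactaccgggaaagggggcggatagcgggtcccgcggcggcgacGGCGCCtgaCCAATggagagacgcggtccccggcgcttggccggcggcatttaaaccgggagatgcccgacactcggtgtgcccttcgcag
Ndp: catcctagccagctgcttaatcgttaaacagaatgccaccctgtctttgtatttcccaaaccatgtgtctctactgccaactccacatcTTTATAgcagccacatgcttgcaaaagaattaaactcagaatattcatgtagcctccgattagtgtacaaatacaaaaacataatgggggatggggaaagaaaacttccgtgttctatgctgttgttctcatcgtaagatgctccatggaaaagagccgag
The *Grem1* window was 72% G or C with 25 CpG pairs, and the *Ndp* window 42% with 5 CpG pairs, against a median of 51.2% and 5 pairs over 33469 promoter windows. GGCGCC and CCAAT, found in *Grem1*, were present in 8.69% and 34.0% of all windows, and TATAAA, found on the other strand in *Ndp*, in 12.9%. CTTTGAT and TGANTCA, which 3.15% and 6.34% of the windows hold, did not match in either of the 2 windows.

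*Grem1* was near the bottom of the day 0 array and above the median of every later array. Its single probe set read 3.47 in intensity on the day 0 array, 197 and 104 on replicates 1 and 2 of 1 W, and 84.7 on the 2 W array. These intensities lay at the 10.1 percentile of the day 0 array and at the 77.4, 65.2 and 69.6 percentiles of the later ones. Day 0 stood apart from the 3 later arrays, which after scaling lay within 0.87 log2 units of each other. Relative to day 0, *Grem1* was 63.6-fold and 34.8-fold higher on the replicates at 1 W (mean log2 ratio 5.56 ± 0.61, SD, n = 2) and 36.1-fold higher at 2 W. Because the day 0 value was so low, the size of these ratios depends on what a dim value means. With every array floored at its 20th percentile, the ratios were 15.4 at 1 W and 11.8 at 2 W.

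*Tnfrsf11b* (chr7:87456318-87484324) followed nearly the same course. Its single probe set read 3.13 on the day 0 array, 139 and 88.2 on the arrays of 1 W, and 56.7 on that of 2 W. It moved from the 9.4 percentile at day 0 to the 70.9, 62.1 and 61.7 percentiles. The highest value was on replicate 1 at 1 W and the lowest of the later ones at 2 W. The ratios were 49.7 and 32.8 at 1 W (mean log2 ratio 5.34 ± 0.42, SD, n = 2) and 26.8 at 2 W. With the floor they were 11.9 and 7.91. The log2 difference of 2 W from 1 W was -0.59, against a difference of 0.60 between the replicates at 1 W.

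Both probe sets of *Ndp* were higher on each later array, with the order of the replicates at 1 W turned round. The brighter probe set read 38.2 on the day 0 array, 196 and 232 on the arrays of 1 W, and 113 on that of 2 W. The dimmer one had 3.22, 53.5, 82.0 and 35.3 in the same order. Replicate 2 was higher than replicate 1 by both probe sets, while for *Grem1* and *Tnfrsf11b* replicate 1 was higher. The brighter probe set was 6.37-fold higher at 1 W (mean log2 ratio 2.67 ± 0.21, SD, n = 2) and 4.39-fold higher at 2 W. The dimmer one was 23.5-fold and 16.2-fold higher, or 7.14-fold and 4.93-fold with the floor. So the 2 probe sets differed in the size of the ratio by 1.88 log2 units at 1 W without the floor.

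Ratios of this size were rare on these arrays. A ratio over 16-fold on every array after ECLE was found for 40 of 31042 probe sets (0.129%), and *Grem1*, *Tnfrsf11b* and the dimmer probe set of *Ndp* were among them. These members were picked for this, so the count supports nothing. Probe sets that start low are more often high later: of 3921 with a day 0 intensity under 5, 19.8% were over 2.0-fold on each later array and 0.867% over 16-fold. The 3 probe sets are among those 3921. *Grem1*, *Tnfrsf11b* and the dimmer probe set of *Ndp* lay below the 20th percentile at day 0, so that only the arrays after ECLE carried them over the level filter. This filter was set at the 40th percentile of the mean log2 level of a probe set over the 4 arrays.

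**Figure D1:**
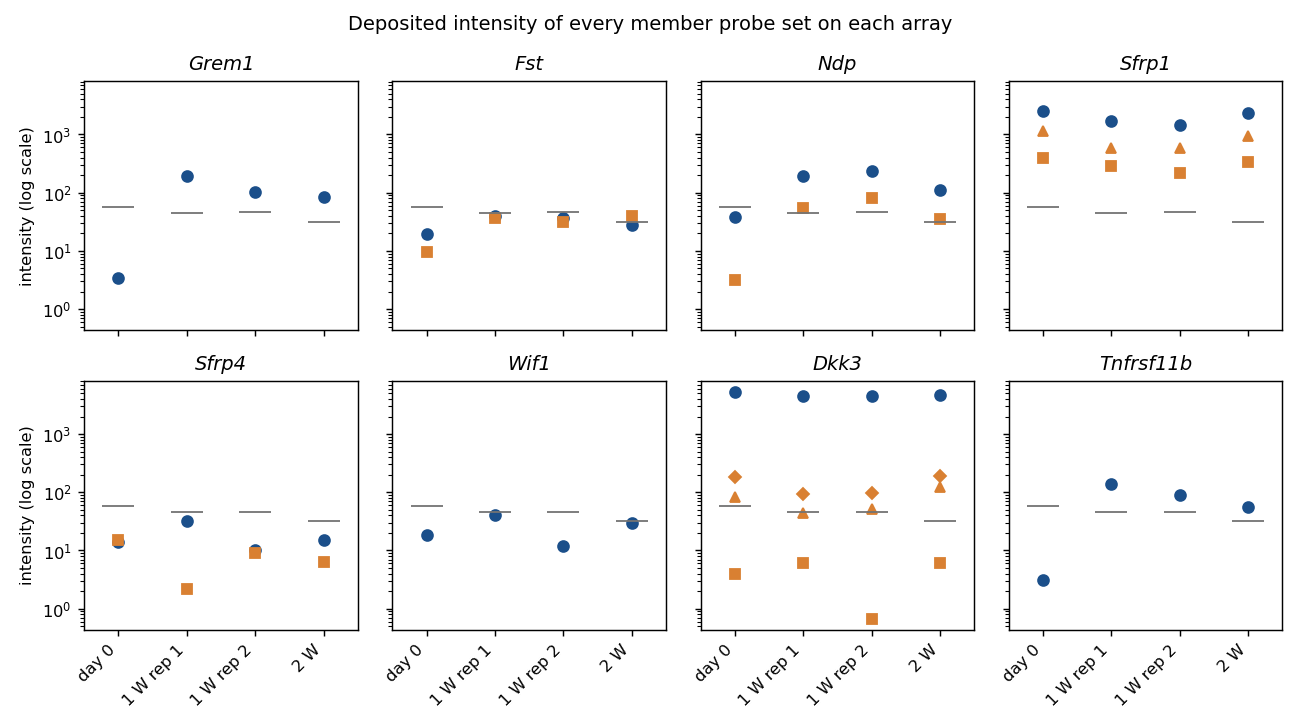
Deposited intensity (vertical axis, log scale) of every member probe set on the day 0, 1 W replicate 1, 1 W replicate 2 and 2 W arrays. Blue circles are the brightest probe set of each gene, orange symbols its other probe sets and gray bars the array medians. Grem1 starts at 3.47 and Tnfrsf11b at 3.13, far below the day 0 median of 57.0, and both lie above the medians of all later arrays, while Sfrp1 and the brightest Dkk3 probe set lie far above the median throughout.

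*Fst*, the activin-binding member (chr2:47856345-47863670), was the only gene of the 5 not picked for its values that was over 2.0-fold on each array after ECLE by its brightest probe set. That probe set read 19.6 on the day 0 array, 39.4 and 37.0 on the arrays of 1 W, and 27.5 on that of 2 W. Its second probe set had 9.72, 36.4, 31.1 and 39.6. The day 0 value was the lowest by both, and the replicates at 1 W lay close together, 0.04 and 0.18 log2 units apart. At day 0 both *Fst* probe sets lay below the 40th percentile (29.4 and 18.9), so the arrays after ECLE carried them over the level filter too, and their tests against day 0 are of members that the filter admitted for being high later. The brightest had a ratio of 2.23 at 1 W (1.16 ± 0.40 on the log2 scale, standard error, adjusted p = 0.271 from limma) and of 2.08 at 2 W (1.06 ± 0.47, adjusted p = 0.214). The second was 3.95-fold higher at 1 W (adjusted p = 0.18 from limma) and 6.03-fold higher at 2 W (2.59 ± 0.52 on the log2 scale, standard error, adjusted p = 0.0755). At 2 W this probe set passed the threshold with arrays scaled by their median (adjusted p = 0.0345 from limma) or left as deposited (0.0391), settings in which 5.09% and 1.85% of all tested probe sets were called higher at 2 W than at day 0. With the values as deposited, the brightest *Fst* probe set was under 2.0-fold at 2 W, with a log2 ratio of 0.49.

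Together with the 3 picked genes, 4 of the 8 members were over 2.0-fold on each array after ECLE and none was under 0.5-fold on each, against 4.28% and 2.59% of all 14217 genes. The rule used this contrast for 3 of the 4. Of the 5 genes not picked, 1 met the rule upward and 0 downward. By probe set, 6 of 16 were over 2.0-fold on each array, 2 of them from genes not picked, against 4.32% of all probe sets.

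*Sfrp1*, a Wnt antagonist (chr16:75278325-75316736), was bright on every array, lower at 1 W than at day 0 and higher at 2 W than at 1 W. Its brightest probe set read 2524 on the day 0 array, 1715 and 1445 on the arrays of 1 W, and 2369 on that of 2 W. Its other probe sets had 1151, 586, 584 and 949, and 401, 283, 217 and 340. Deposited intensities at 2 W lay below day 0 and, with every scaling of the arrays compared, above it, the array mean being 165 at 2 W and 244 at day 0. The log2 ratio of the brightest probe set was -0.49 at 1 W (standard error 0.14, adjusted p = 0.225 from limma) and 0.47 at 2 W (standard error 0.16, adjusted p = 0.149), and without scaling the 2 W value was -0.09, with -0.24 and -0.28 by the other probe sets. From 1 W to 2 W the log2 difference was 0.96 by the brightest probe set (standard error 0.14, adjusted p = 0.139 from limma), and 0.83 and 1.07 by the others. This difference was above 0 by all 3 probe sets under every scaling compared, from 0.46 to 1.31. The probe set with 1.07 passed limma for it under median scaling (adjusted p = 0.0425) and as deposited (0.0379), where 0.848% and 1.04% of all tested probe sets were called higher at 2 W than at 1 W.

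*Dkk3* (chr1:175672834-175715867) had the brightest probe set of the members, at or above the 99.4 percentile of each array, with 3 dimmer ones. The brightest read 5285 on the day 0 array, 4523 and 4498 on the arrays of 1 W, and 4705 on that of 2 W. The next had 181, 95.1, 96.6 and 191, and another 83.7, 44.0, 50.6 and 125. By these 3, both replicates at 1 W were below day 0 after scaling and 2 W was above, but the distance differed. The brightest had a log2 difference of 2 W from 1 W of 0.43 (standard error 0.11, adjusted p = 0.164 from limma), and its ratios to day 0 changed sign with the scaling: at 1 W to 0.08 with the median and 0.04 with the 75th percentile, at 2 W to -0.03 with quantiles and -0.17 as deposited. The dimmer pair had differences of 1.37 and 1.78 (standard errors 0.19 and 0.27, adjusted p = 0.139 from limma for both). Both passed with median scaling (adjusted p = 0.0418 and 0.0424 from limma) and as deposited (0.0364 and 0.0343), against the same shares of all tested probe sets as for *Sfrp1*. The dimmest probe set, from 0.677 to 6.14, was below the level filter, and its replicates at 1 W were 3.13 log2 units apart.

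The course of *Sfrp1* and *Dkk3*, below day 0 on both arrays at 1 W and above it at 2 W, was shared by 6 of the 16 member probe sets, against 7.46% of all probe sets, and by 2 of the 8 genes, against 6.39%. The 6 belong to only these 2 genes and are not independent. The course was read from the same 2 genes before it was counted, so these counts are a description. They hold with arrays divided by their mean. As deposited, the brightest probe sets of both genes lay below day 0 at 2 W too (log2 ratios of -0.09 and -0.17). The median log2 difference of 2 W from 1 W over the tested probe sets was -0.20, and it ranged from -0.58 as deposited to 0.04 with the 75th percentile.

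**Figure D2:**
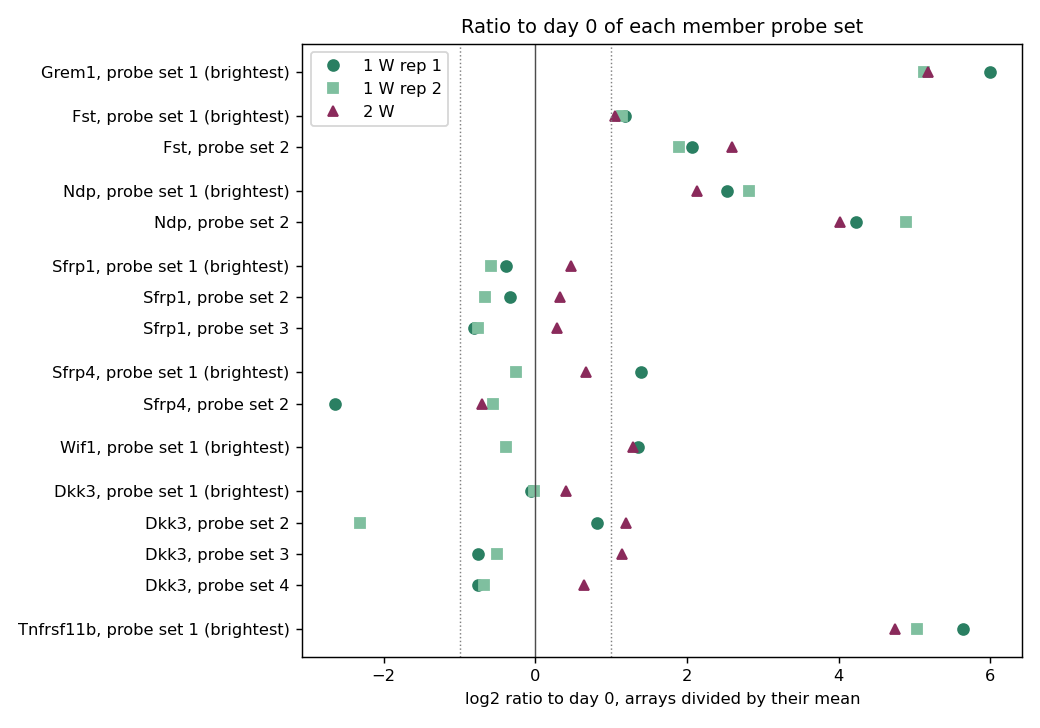
Log2 ratio to day 0 (horizontal axis, arrays divided by their mean) of each member probe set. Circles and squares are replicates 1 and 2 of 1 W and triangles the 2 W array, with dotted lines at 2.0-fold and 0.5-fold. All symbols of Grem1, Tnfrsf11b, Ndp and Fst lie right of the 2.0-fold line, Sfrp1 has its circles and squares left of 0 and its triangles right of it, and the symbols of Sfrp4 and Wif1 are spread to both sides.

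**Figure D3:**
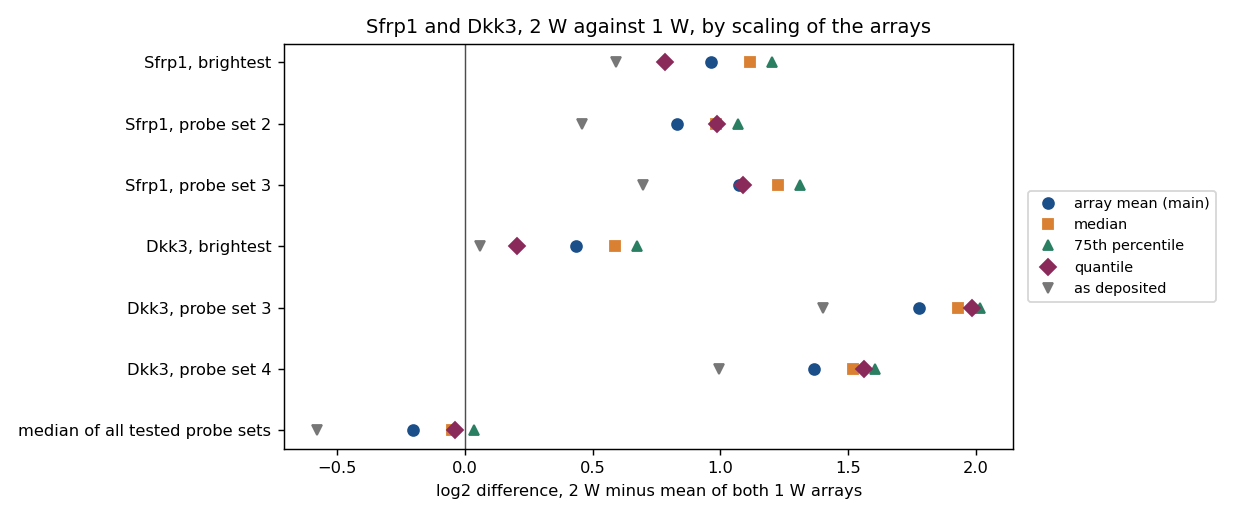
Log2 difference of 2 W from the mean of both 1 W arrays (horizontal axis) for the tested Sfrp1 and Dkk3 probe sets, with arrays scaled by their mean, median, 75th percentile or quantiles, or as deposited. The lowest row is the median of all tested probe sets, from -0.58 to 0.04. Every Sfrp1 and Dkk3 point lies right of 0, the nearest being the brightest Dkk3 probe set as deposited (0.06).

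*Sfrp4* and *Wif1* could not be placed, because at 1 W the replicates of their brightest probe sets lay on opposite sides of day 0. *Wif1* (chr7:58433326-58503853) read 18.2 on the day 0 array, 41.4 and 12.0 on the arrays of 1 W, and 30.1 on that of 2 W, where its ratio was 2.45. *Sfrp4* (chr17:49974532-50026448) had 13.9, 32.4, 10.02 and 14.9 by its brighter probe set and 15.3, 2.18, 8.90 and 6.30 by its dimmer one. Replicate 1 minus replicate 2 was 1.74 log2 units for *Wif1*, and 1.64 and -2.08 for the probe sets of *Sfrp4*. Both genes lay under the array median on every array and below the level filter, so they were not tested. Without replicate 2 at 1 W, *Wif1* would count among the members over 2.0-fold on each array, which then are 5.

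Among the genes not picked for their values, no probe set passed limma in the main setting. Of 8 tested probe sets of *Fst*, *Sfrp1* and *Dkk3*, 0 were called at 1 W, at 2 W or between 1 W and 2 W. Over all 18625 tested probe sets the share called higher than day 0 was 0.0483% at either time, and 0 were called lower, or in either direction between the times after ECLE. At an unadjusted p under 0.05, 5 of the 8 differed from day 0 at 1 W (17.9% of all tested), 5 at 2 W (30.9%) and 6 between 1 W and 2 W (21.9%). Without *Fst*, which the filter admitted through the later arrays, these counts were 3, 4 and 6 of 6, from *Sfrp1* and *Dkk3* alone, whose probe sets are not independent. The single residual degree of freedom of the fit comes from the pair at 1 W, whose spread stands in for that of day 0 and 2 W, and precision is limited by so few arrays.

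The genes with ratios most like those of the 3 picked members are named as a description, since the members were picked by these ratios. Likeness was the Euclidean distance over the 3 log2 ratios to day 0, among 10449 other genes at or above the filter. For *Grem1* the nearest were *Tagln*, which encodes the smooth muscle protein transgelin (distance 0.80), *Serpina3n*, a secreted protease inhibitor (0.92), and *Col5a2*, a chain of type V collagen (1.17). For *Tnfrsf11b* they were *Col5a2* (0.71), *Tagln* (0.88) and *Ctsk* (1.22), the collagen-degrading protease cathepsin K. For *Ndp* they were the complement genes *C3* (0.18) and *C1qb* (0.33), with *Styxl1* (0.28) between them.

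Cell type markers also differed between the arrays. More or fewer cells of a type and more or less RNA per cell cannot be told apart in these samples. The study's introduction names alpha smooth muscle actin and collagen types I and III among the products of genes that TGFβ raises in fibrosis and EMT. Their genes are counted here as smooth muscle and fibroblast markers, and whether they changed within LECs was not tested. Of 9 measured fibroblast markers 4 were over 2.0-fold on each array after ECLE, and their summed level, in units of the array mean, was 20.4, 48.9, 21.5 and 48.0 in the order day 0, replicates 1 and 2 of 1 W, and 2 W, while 1 (*Pdgfra*) was under 0.5-fold on each array. Of 12 macrophage markers 10 were over 2.0-fold on each array, with sums of 2.29, 16.3, 12.8 and 9.08, and of 8 smooth muscle and pericyte markers 2, with sums of 2.08, 14.2, 8.49 and 7.05. Of the fibroblast and the smooth muscle lists limma called 1 gene each at both times, *Col1a1* (ratios of 20.3 and 37.6, adjusted p = 0.03 and 0.0405) and *Tagln* (ratios of 61.3 and 26.9, adjusted p = 0.0297 and 0.04999, just under the threshold). At each time limma called 5 of all 10455 genes at or above the filter higher than day 0. *Col1a1* and *Tagln* lay at the 34.5 and 34.3 percentiles of the day 0 array, so the level filter admitted both through the later arrays. The 5 pigment cell markers had sums of 10.2, 66.1, 23.3 and 36.0 with 3 over 2.0-fold on each array, the 7 endothelial ones 1.70, 3.18, 1.75 and 2.33 with 1. *Grem1* and *Tnfrsf11b*, like all these sums, were higher on replicate 1 than on replicate 2 at 1 W. The sums of lens epithelium, lens fiber and Schwann cell markers, given below, had the same order, so it was not particular to the types named so far. Photoreceptor markers went the other way (66.4, 6.74, 27.8 and 8.86), with 8 of 10 under 0.5-fold on each array. Muller glia, which are known to make norrin in the retina, had sums of 16.8, 12.2, 21.5 and 10.7 over 5 markers, with 0 over 2.0-fold and 0 under 0.5-fold on each array, and the 3 Schwann cell markers sums of 2.12, 1.70, 0.719 and 1.05, with 1 each way. The 10 lens epithelium markers, which check the labeled cell type, had sums of 177, 161, 155 and 154, with 1 (*Cdh1*) under 0.5-fold on each array. Bright genes weigh most in these sums. The median log2 ratio of the lens epithelium markers was -0.23 (1 W) and -0.76 (2 W), against -0.02 and -0.16 over all genes. The 10 lens fiber markers had sums of 177, 180, 151 and 397. No marker was at 0 on any array. The array's beta-actin controls, which compare the 3′ end of the transcript with its 5′ end, gave 3′/5′ ratios of 2.32, 1.89, 1.90 and 1.61 in that order, and those of GAPDH 1.16, 1.12, 1.18 and 1.10. The part of these differences in the members' values was not tested.

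Ligands, receptors and targets of BMP and activin signaling, on which gremlin and follistatin act, did not pass limma in any comparison. Of 12 measured BMP and activin ligands, 3 were over 2.0-fold on each array, all of them below the level filter. The median log2 ratio of the list was 0.65 (1 W) and 0.00 (2 W). At 1 W it was -0.01 on replicate 1 and 1.13 on replicate 2, so the replicates differed. Over the 7 ligands at or above the filter the median was 0.61 (1 W) and -0.26 (2 W). *Inhba*, the activin A subunit and the brightest ligand, had intensities of 2672, 1266, 1405 and 495, with log2 ratios of -0.81 and -1.87 (adjusted p = 0.148 and 0.0553 from limma). *Bmp2*, the next brightest, had 160, 200, 501 and 125, with replicate 2 at 1 W standing apart. None of the 12 receptors and Smads was past the fold rule on each array, and their median log2 ratio was -0.56 (1 W) and -0.60 (2 W), against -0.02 and -0.16 over all genes, each median being over all measured genes. *Smad4* and *Smad1*, the brightest of them, had log2 ratios of 0.14 and 0.23 at 1 W and -0.42 and 0.04 at 2 W.

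Of 10 BMP targets, *Bambi*, a decoy receptor for BMP and TGFβ signals, was under 0.5-fold on each array, with intensities of 696, 171, 174 and 159 (adjusted p = 0.0924 and 0.0577 from limma). *Id3* and *Id1*, the brightest BMP targets, had log2 ratios of -0.17 and 0.24 at 1 W and -0.66 and 0.27 at 2 W. The list had medians of -0.04 (1 W) and -0.38 (2 W). *Msx1* was the single BMP target over 2.0-fold on each array, and it lay below the level filter, with intensities of 0.829, 67.9, 55.5 and 43.1.

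Of 10 other BMP and activin antagonists, 2 were under 0.5-fold on each array and 1 over 2.0-fold, with median log2 ratios of -0.10 (1 W) and -0.59 (2 W). *Sostdc1*, an antagonist of BMPs and Wnts, had intensities of 777, 155, 120.4 and 87.0, with log2 ratios of -2.32 and -2.59 (adjusted p = 0.093 and 0.0553 from limma). *Sost*, which encodes sclerostin, a blocker of the Wnt co-receptors, had 237, 30.8, 36.1 and 13.4 (log2 ratios -2.64 and -3.58, adjusted p = 0.116 and 0.0558). *Chrdl2*, a chordin-like BMP antagonist below the level filter, had 5.07, 12.9, 20.3 and 48.1. *Twsg1* and *Nbl1*, the brightest of the list, had log2 ratios of -0.44 and 0.60 at 1 W and -0.87 and -0.20 at 2 W.

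The genes of the norrin receptor complex were lower on every array after ECLE than at day 0, without passing limma. *Fzd4*, the norrin receptor, had intensities of 423, 249, 111 and 68.8, a ratio of 0.45 at 1 W and 0.241 at 2 W (adjusted p = 0.333 and 0.114 from limma). *Tspan12* had 1612, 858, 805 and 509, ratios of 0.589 and 0.468 (adjusted p = 0.142 and 0.0577). *Lrp5* had 74.5, 52.1, 59.3 and 31.1, ratios of 0.852 and 0.618 (adjusted p = 0.713 and 0.264). Replicate 1 was higher than replicate 2 for *Fzd4*, while for *Ndp* it was lower. Of all 15 measured Wnt and norrin receptors, 0 were past the fold rule on each array, and the median log2 ratio of the list was -0.40 (1 W) and -0.67 (2 W). *Fzd1*, the other bright receptor beside *Tspan12*, had a log2 ratio of -0.51 and -1.24.

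Among the Wnt ligands, *Wnt16* was over 2.0-fold on each array and at or above the filter, with intensities of 18.8, 74.3, 56.3 and 30.4 (adjusted p = 0.152 and 0.148 from limma). It lay at the 28.7 percentile of the day 0 array and reached the filter through the later ones. The 14 ligands measured had median log2 ratios of 0.58 (1 W) and 0.93 (2 W). *Wnt7a* and *Wnt5b*, the brightest of them, were highest at 2 W: *Wnt7a* had 65.0, 101, 43.1 and 304, and *Wnt5b* 40.5, 50.6, 56.1 and 190, with log2 ratios of 2.79 and 2.80 at 2 W (adjusted p = 0.0872 and 0.0558). Inside the cell, 0 of 10 genes of the beta-catenin pathway were past the fold rule on each array (medians 0.03 and -0.67), and *Ctnnb1*, beta-catenin itself, and the kinase *Csnk1a1* had log2 ratios of 0.18 and 0.25 at 1 W.

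Of 11 Wnt targets, 3 were over 2.0-fold on each array and none under 0.5-fold, and the list had a median log2 ratio of 1.20 (1 W) and 0.94 (2 W). *Lef1*, a transcription factor of the pathway, had intensities of 31.2, 86.3, 81.2 and 84.3, so that the replicates at 1 W nearly coincided (log2 ratio 1.62 and 2.00, adjusted p = 0.139 and 0.0607 from limma). At the 38.5 percentile of the day 0 array, *Lef1* too reached the filter through the later ones. *Tcf7*, another such factor, had 96.0, 290, 446 and 133, and *Nkd2*, a feedback inhibitor, 8.83, 61.2, 20.3 and 51.6. Not all targets did so: *Axin2*, singled out after its values were seen, had log2 ratios of 0.25 and -0.23. The bright targets *Ccnd1*, cyclin D1, and *Znrf3*, which removes frizzled receptors, had ratios of 2.81 and 0.529 at 1 W and 1.21 and 0.433 at 2 W.

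*Sfrp2*, a close relative of *Sfrp1*, had another course. Its intensities were 32.1, 272, 205 and 73.7 in the order of the arrays, a ratio of 8.39 at 1 W and 3.40 at 2 W (adjusted p = 0.0828 and 0.0662 from limma). *Sfrp2* lay at the 39.2 percentile of the day 0 array and reached the filter through the later ones. It was highest at 1 W, where *Sfrp1* was lowest. *Frzb*, another secreted frizzled-related gene, had 42.8, 44.4, 44.8 and 39.4. Of the 4 other Wnt antagonists measured, *Dkk2* was also over 2.0-fold on each array (medians of the list 1.82 and 1.11), but at intensities of 0.202, 17.8, 9.09 and 22.9 it lay below the filter, and its ratio rests on a day 0 value near 0.

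RANKL, the main ligand of osteoprotegerin, was dim on every array. Its gene *Tnfsf11* had intensities of 4.34, 4.02, 4.06 and 6.07 and its receptor *Tnfrsf11a* 18.5, 30.4, 30.1 and 22.2, both below the level filter. *Tnfsf10*, which encodes TRAIL, had 53.9, 52.4, 95.1 and 40.8. The 13 measured genes of osteoprotegerin ligands, RANK and osteoclasts had median log2 ratios of 0.90 (1 W) and 0.83 (2 W). On replicates 1 and 2 of 1 W the medians were 0.13 and 1.04. Over the 8 genes at or above the filter, the medians were 0.22 (1 W) and -0.16 (2 W). Of the 13 genes, 4 were over 2.0-fold on each array, 3 of them at or above the filter. These were *Ctsk* (4.20, 130, 56.4 and 94.0), *Csf1r*, the receptor of macrophage colony-stimulating factor (38.6, 207, 136 and 82.6), and *Tyrobp*, an adaptor of macrophage receptors (34.8, 142, 118 and 64.9), and *Csf1r* was counted with the macrophage markers too. *Traf6*, the brightest gene of the list and the adaptor of RANK, had log2 ratios of -0.43 and -0.48, and *Csf1*, the next brightest, which encodes macrophage colony-stimulating factor, -0.14 and -0.53. Of 19 other TNF family genes 3 were over 2.0-fold on each array (medians 0.43 and 0.20), among them *Tnfrsf12a*, the receptor of TWEAK, with 184, 441, 478 and 524 (adjusted p = 0.101 and 0.0553 from limma). *Ltbr*, the lymphotoxin beta receptor, was the brightest, with log2 ratios of -0.03 and -0.19. Over the genes of this TNF family list at or above the filter, the medians were 0.43 (1 W) and -0.19 (2 W).

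Over all 11 pathway lists, 130 of 162 listed genes were measured and 87 were at or above the filter. Of these 87, 9 were over 2.0-fold on each array and 3 under 0.5-fold, against 2.51% and 1.78% of all genes at or above the filter. Of the 9, 5 (*Wnt16*, *Lef1*, *Nkd2*, *Sfrp2* and *Ctsk*) were below the 40th percentile at day 0 and reached the filter through the later arrays, so the count of 9 is a description. limma called 0 of the 87 in any comparison. At an unadjusted p under 0.05 the 1 W arrays had 13 of them higher and 16 lower than day 0, the 2 W array 13 and 23, and 2 W against 1 W gave 4 and 23. Over all 10455 genes at or above the filter the same shares were 10.4% and 8.92% at 1 W, 10.8% and 22% at 2 W, and 6.02% and 18.7% for 2 W against 1 W.

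**Figure D4:**
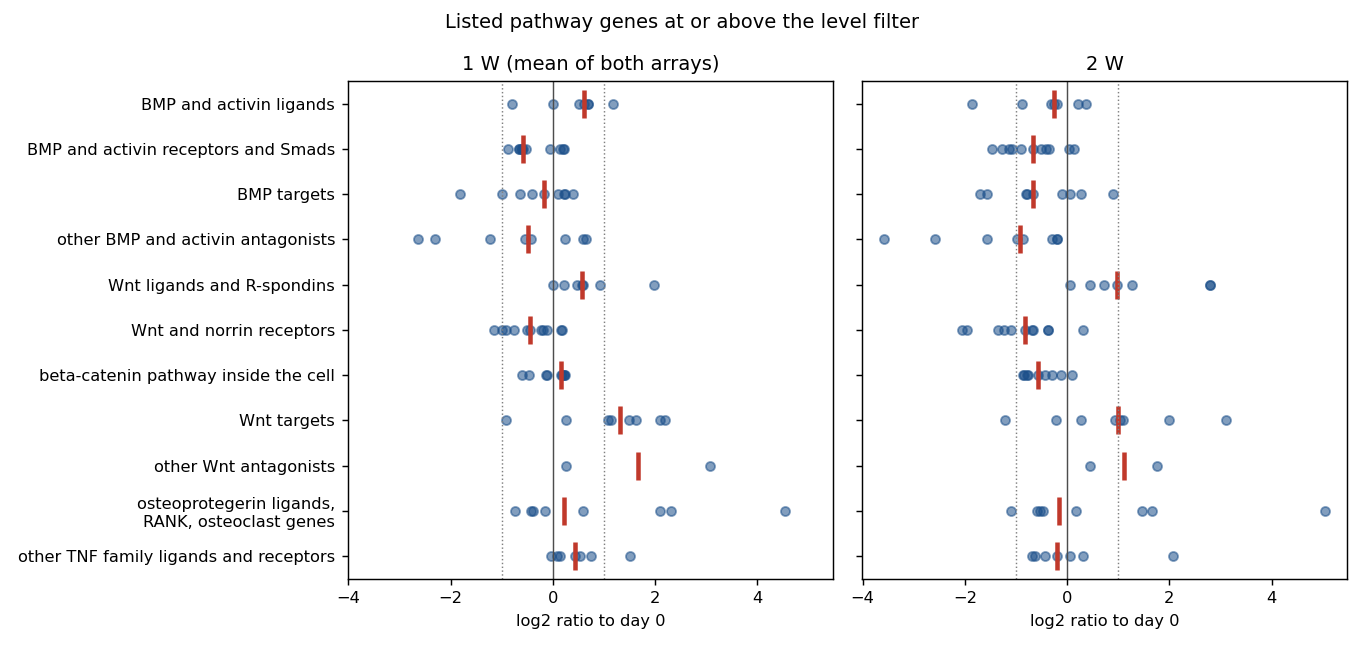
Log2 ratio to day 0 (horizontal axes) at 1 W (left, mean of both arrays) and 2 W (right) of each listed pathway gene at or above the level filter, with dotted lines at 2.0-fold and 0.5-fold. Each blue point is a gene and each red bar the median of the points of its list, which leaves out the genes below the filter that the list medians in the text include. The Wnt targets have their median right of the 2.0-fold line at 1 W, and the receptors of both pathways have theirs left of 0.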

How the data were processed

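Lens capsules were profiled on 4 arrays. Per the study's methods, the authors labeled RNA with a 3′ IVT kit, hybridized it to the rat genome array named there and obtained 1 value per probe set with Command Console and Expression Console (the submitters' processing notes name Expression Console too). The deposited values are intensity on a linear scale. No source used here gives the summary algorithm or scaling target, and detection calls were not used. From these intensities, 57 control probe sets were left out, each of 4 arrays was divided by its mean, the average named for per chip normalization in the methods, and log2 was taken. limma 3.58.1 in R 4.3.3 was run on the 18625 probe sets whose mean log2 level reached the 40th percentile (3 groups, intensity trend, Benjamini-Hochberg adjustment over all of them, threshold 0.05, two-sided, 1 residual and 3.12 prior degrees of freedom). p-values measure only the spread between the 2 arrays at 1 W. The fold rule of the methods, over 2.0 or under 0.5, was applied to each array. limma was tested on simulated data. Their noise on all 4 arrays was drawn from the spread of the pair at 1 W, so the spread of day 0 and 2 W was not checked by it.

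Names come from the platform annotation: 20826 probe sets had 1 symbol, 436 several and 9780 none. For counts of genes, the brightest probe set by mean level stands for its gene. Members, lists and tests were chosen with earlier results of these data known. Named were all members, genes of the pathway lists past the fold rule on each array and at or above the filter, the 2 brightest of each such list, marker genes that limma called and the 3 genes nearest to each picked member. The receptors of norrin and the ligands of osteoprotegerin were added as partners of members, and *Axin2*, *Msx1*, *Chrdl2*, *Dkk2*, *Pdgfra* and *Cdh1* were named after their values were seen. Alternatives were other scalings, a floor at the 20th percentile, other filters, limma without a trend or robust, all probe sets of a gene averaged, and either replicate of 1 W omitted, which leaves no residual degree of freedom, so that only values were computed. Gene positions and promoter windows are from RefSeq on GRCr8, and the array's annotation was used only for symbols.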

Additional observations from a re-analysis of the deposited data

Results flagged for a closer look

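*Sfrp1* and *Dkk3* stood out because both arrays at 1 W lay on the other side of day 0 from the array at 2 W, by their brightest probe sets. The log2 difference of 2 W from 1 W was 0.96 for *Sfrp1* and 0.43 for *Dkk3*, and limma, which tested it directly, did not pass either (adjusted p = 0.139 and 0.164). The sign at 2 W depends on the scaling of a single array, as given above. For *Dkk3* the 1 W arrays lay close to day 0 (mean log2 ratio -0.04, adjusted p = 0.879 from limma). Its sign at 1 W changed with the scaling too, so there the 1 W mean was not below day 0. With at most 2 arrays in a group, outlying arrays could not be tested for.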

How the results depend on the processing

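The count of 0 called genes among *Fst*, *Sfrp1* and *Dkk3*, by their brightest probe sets, held in each of 9 alternatives of scaling, floor, filter and limma setting, in all 3 comparisons. With the 60th percentile filter *Fst* was left out and not tested. Without a trend limma called 0 of all tested probe sets in each comparison. For 2 W against 1 W only median scaling and the deposited values gave any call. Where limma called nothing at all, the count of 0 says nothing of these genes. Dimmer probe sets of the 3 genes passed only with median scaling or as deposited, where limma called, in both directions, 1631 and 7974 of all tested probe sets at 2 W against day 0 (9 in the main setting) and 209 and 4421 at 2 W against 1 W (0 in the main setting). The 4 members over 2.0-fold on each array were the same 4 genes with median, 75th percentile and quantile scaling and with the floor, and became 3 as deposited, without *Fst*. Leaving out either 1 W replicate gave 4 to 5. The count of 0 under 0.5-fold stayed 0 throughout (0 to 0 without a replicate). Of 106 alternative values of the members' ratios, 36 moved by more than the spread of the 1 W replicates and 9 changed sign, all of *Sfrp1*, *Sfrp4*, *Wif1* and *Dkk3*. The median log2 ratio of the tested probe sets at 2 W was -0.26 in the main setting, 0.01 with median scaling and -0.83 as deposited. No paired analysis was possible because only the 1 W group has more than 1 array and no replicate numbers are shared. No detection calls were at hand, so how far dim probe sets stand above background is unknown.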
